A study of Mus musculus with 8 samples.

Results

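Transcripts of 10 genes that mark mesothelial cells were followed in cultures of adherent peritoneal lavage cells: Wt1, Bnc1, Lrrn4, Msln, Upk1b, Upk3b, Gpm6a, Krt8, Krt18 and Krt19. The members were the array probes whose RefSeq accession belonged to a listed gene, which gave 1 probe for each of the 10 genes among 21150 genes with a named probe on the array. All 10 passed the filter on dim probes, and 23118 features (named genes and unnamed probes) passed it in all. The cells had been collected from the peritoneal cavity of mice, plated overnight and washed, so that only adherent cells, labelled as macrophages, were lysed.

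The 8 single-colour arrays fell into 4 groups of 2, each from mice 8 weeks old of a mixed 129/C57Bl6 background. Fra-1 knockout cells came from mice of genotype Fra-1lox/lox MxCre-/+, and Fra-1 control cells from wild-type Fra-1lox/lox littermates. Fra-2 knockout cells came from Fra-2lox/lox LysMCre-/+ mice, and Fra-2 control cells from wild-type Fra-2lox/lox littermates. All 4 groups carried loxP-flanked alleles. Fra-1 and Fra-2, encoded by Fosl1 and Fosl2, are Fos-family subunits of the transcription factor AP-1. Mx-Cre is driven by an interferon-inducible promoter that works in many cell types, and LysM-Cre by the lysozyme promoter of myeloid cells, which include macrophages. Only the Fra-1 line was labelled as elicited with thioglycollate, a sterile irritant that draws cells into the peritoneum, so the line, the elicitation and the preparation cannot be told apart.

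Mesothelial cells form the single layer that lines the peritoneal cavity and covers its organs. They keep epithelial features, such as keratins 8, 18 and 19 and apical membrane proteins, beside the developmental transcription factor Wt1, and they can detach into lavage fluid and attach to plastic. They can also take on a mesenchymal state in which keratins decline and matrix genes are induced, and in mice they are a source of the retinoic acid that maintains resident peritoneal macrophages. Levels in whole cultures are bulk measurements: fewer cells of a type and less RNA per cell cannot be told apart.

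Levels are log2 processed signals minus the 75th percentile of the same array, so that 0 is the level of a probe at that percentile, and they were compared only between arrays for the same probe. Between 47.7% and 57.6% of spots were well above background per array, lowest on Fra-2 knockout 1, where the lowest such signal was −3.80, against −5.22 to −4.70 on the other arrays. A difference was called at a Benjamini-Hochberg adjusted p under 0.05 in limma over all features. The targeted gene Fosl1 was not well above background on either Fra-1 knockout array (−5.03 and −4.42), against −2.98 and −2.21 in Fra-1 controls, where it was, so it was at least 3.90-fold lower in knockout cells without reaching the threshold (limma adjusted p = 0.363). The 2 probes of Fosl2 went opposite ways: the brighter was at 6.21 and 6.89 in Fra-2 knockout cells, against 5.28 and 5.34 in Fra-2 controls, and the dimmer at −4.18 and −4.06, against −2.83 and −2.87. Which parts of the transcripts these probes cover was not determined, so neither probe checks the deletion. Of 8 macrophage markers, 7 were well above background on every array, and the other lacked a value on some array.

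The promoters of the members whose levels went together most closely, described below, are shown for reference as the 250 bases before the annotated start in RefSeq (GRCm38.p6), each 5′ to 3′ on the strand of the gene. Capitals mark matches to 5 short motifs, each searched on both strands. The AP-1 motif was spelled TGANTCA. The letters GGGCGG stood for the GC box of Sp1-type factors. For the core promoter element known as the TATA box the spelling was TATAAA. Factors of the TEAD family were given GGAATG. Finally, the GATA family motif was written as AGATAA. Matches did not overlap each other. Lrrn4 lies at chr2:132880863-132881112 (minus strand), Bnc1 at chr7:81992300-81992549 (minus), Krt8 at chr15:102004343-102004592 (minus) and Krt18 at chr15:102027966-102028215 (plus).
Lrrn4: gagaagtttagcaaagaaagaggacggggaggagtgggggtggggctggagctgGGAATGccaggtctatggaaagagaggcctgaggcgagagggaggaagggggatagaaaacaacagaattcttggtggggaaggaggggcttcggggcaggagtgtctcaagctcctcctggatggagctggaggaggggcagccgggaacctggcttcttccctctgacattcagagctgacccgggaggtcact
Bnc1: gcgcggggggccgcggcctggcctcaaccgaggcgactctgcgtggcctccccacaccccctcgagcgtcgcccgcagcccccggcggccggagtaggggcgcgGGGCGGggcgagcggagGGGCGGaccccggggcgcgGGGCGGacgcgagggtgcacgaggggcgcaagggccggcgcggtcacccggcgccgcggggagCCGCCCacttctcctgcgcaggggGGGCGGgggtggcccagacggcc
Krt8: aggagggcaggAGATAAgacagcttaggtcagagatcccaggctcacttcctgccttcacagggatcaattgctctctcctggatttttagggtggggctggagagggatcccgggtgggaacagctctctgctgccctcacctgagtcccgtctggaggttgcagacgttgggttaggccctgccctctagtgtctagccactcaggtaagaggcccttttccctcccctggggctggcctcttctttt
Krt18: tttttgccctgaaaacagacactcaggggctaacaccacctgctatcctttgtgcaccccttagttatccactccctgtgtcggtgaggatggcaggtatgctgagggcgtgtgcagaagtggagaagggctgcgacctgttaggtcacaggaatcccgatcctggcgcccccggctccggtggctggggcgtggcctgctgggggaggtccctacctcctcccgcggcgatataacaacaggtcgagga
RefSeq promoter windows were matched for 6 members, 7 windows in all because Gpm6a has 2. None of the 7 windows held the AP-1 letters, which 6.75% of 32851 promoter windows of this length held. The GC box was found in Bnc1 alone, at 5 places, against 32.7% of all windows with at least 1. With a GC content of 83.6%, the Bnc1 window was also among the most GC-rich, since 0.320% of all windows were at or above it and the median was 52.4%. The TEAD letters were in the Lrrn4, Upk3b and first Gpm6a windows (12.6% of all windows), the TATA letters in the second Gpm6a window (12.4%) and the GATA letters in Krt8 (9.99%). These matches describe letters only.

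Among the transcription regulators, Wt1, a zinc finger factor of mesothelium, kidney and gonad, was at 2.09 and 1.33 in Fra-1 knockout cells and at 2.69 and 3.27 in Fra-1 controls. In the other line it was at −2.54 and −2.14 in Fra-2 knockout cells and at −2.40 and −2.45 in Fra-2 controls. Both Fra-1 knockout arrays were thus below both Fra-1 controls, and all 4 arrays of the Fra-1 line were far above all 4 of the Fra-2 line, where the genotypes overlapped. Bnc1, the zinc finger protein basonuclin 1, was at −3.42 and −4.30 in Fra-1 knockout cells and at −2.18 and −1.49 in Fra-1 controls. It was not well above background on any Fra-2 line array, with −5.89 and −6.79 in Fra-2 knockout cells and −6.87 and −6.81 in Fra-2 controls. Again the Fra-1 knockout arrays lay below their controls without overlap.

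Of the surface proteins, Lrrn4, a leucine-rich repeat membrane protein, was at −2.16 and −2.94 in Fra-1 knockout cells and at −0.84 and −0.07 in Fra-1 controls. On the Fra-2 line it was below background throughout, at −5.82 and −6.73 in knockout cells and at −6.14 and −6.72 in controls. Its 2 Fra-1 groups did not overlap. Upk1b, a tetraspanin of the uroplakin family that coats the bladder epithelium, was at −2.61 and −3.48 in Fra-1 knockout cells and at −2.05 and −1.64 in Fra-1 controls. It was at −4.01 and −4.44 in Fra-2 knockout cells, well above background only on Fra-2 knockout 2, and at −4.54 and −5.13 in Fra-2 controls, on neither of which it was. Upk1b was the one member printed at 10 places on the array, and the SD among its spots was 0.10 to 0.21 on the Fra-1 line arrays and 0.30 to 0.75 on the dimmer Fra-2 line arrays. Knockout and control groups did not overlap in either line, with knockout lower in the Fra-1 line and higher in the Fra-2 line.

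Upk3b, another uroplakin and a widely used mesothelial marker, had its own order. It was at −3.22 and −0.85 in Fra-1 knockout cells and at −2.70 and −1.90 in Fra-1 controls, so that the 2 knockout arrays held the lowest and the highest value of the line. It was below background on the Fra-2 line, at −5.58 and −5.90 in knockout cells and at −5.20 and −5.42 in controls. Msln, the surface glycoprotein mesothelin, was at −0.24 and −1.04 in Fra-1 knockout cells and at −0.57 and −0.47 in Fra-1 controls. It was at −1.64 and −2.02 in Fra-2 knockout cells and at −2.39 and −1.78 in Fra-2 controls, and knockout and control arrays overlapped in both lines. Gpm6a, a membrane glycoprotein of the proteolipid family best known from neurons, was at −2.93 and −3.99 in Fra-1 knockout cells and at −2.97 and −2.26 in Fra-1 controls. It was at −4.63 and −4.15 in Fra-2 knockout cells and at −3.93 and −5.76 in Fra-2 controls, with 1 array of each group well above background and the genotypes overlapping.

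The keratins were well above background on all 8 arrays. Krt8 and Krt18, the type II and type I keratins that pair into filaments of simple epithelia, had closely parallel levels. Krt8 was at −1.56 and −2.11 in Fra-1 knockout cells against −1.45 and −1.08 in Fra-1 controls, and at −2.14 and −2.77 in Fra-2 knockout cells against −2.97 and −2.65 in Fra-2 controls. Krt18 was at −0.32 and −0.80 in Fra-1 knockout cells against −0.31 and 0.33 in Fra-1 controls, and at −0.04 and −0.89 in Fra-2 knockout cells against −0.99 and −0.90 in Fra-2 controls. Both keratins were lower on each Fra-1 knockout array than on either control, by a narrow margin for knockout 1, and Krt18 was the only member with a Fra-2 knockout array above some Fra-1 control array. Krt19, a small type I keratin, was at −1.21 and −2.06 in Fra-1 knockout cells and at −1.55 and −1.15 in Fra-1 controls, with overlap. It was at −2.28 and −2.65 in Fra-2 knockout cells and at −2.71 and −2.86 in Fra-2 controls, without overlap.

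**Figure D1:**
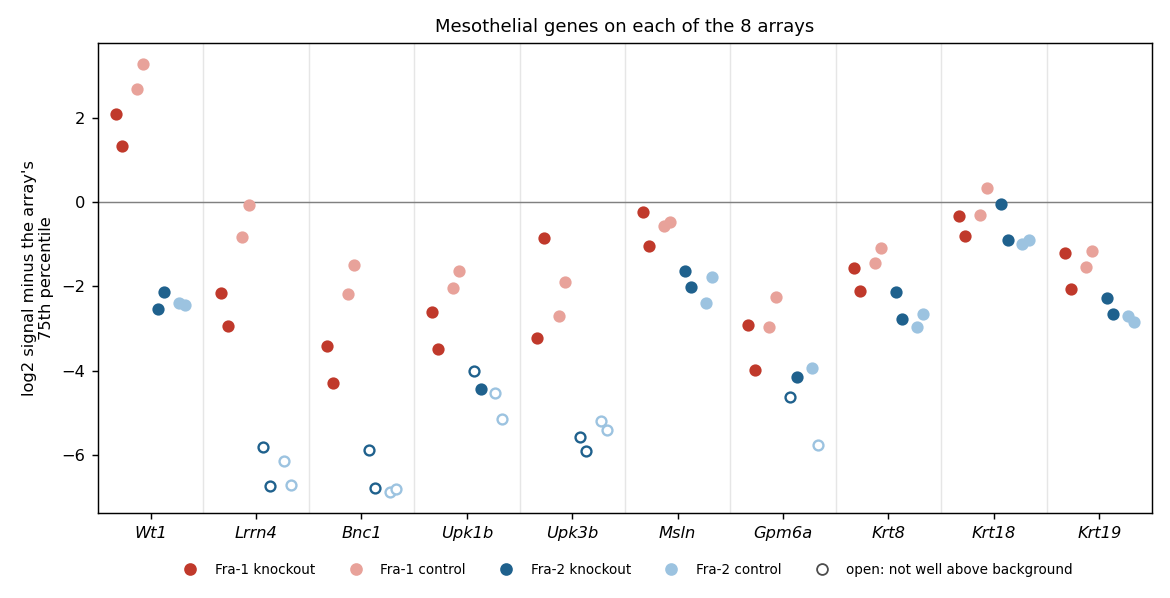
Level of each mesothelial gene (log2 signal minus the array's 75th percentile) on each of the 8 arrays, 2 points per group, with open points not well above background. Levels are to be compared within a gene: for Wt1, Lrrn4 and Bnc1 the Fra-1 line points lie far above the Fra-2 line points, and Fra-1 knockout points lie below Fra-1 control points.

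The first comparison asked how loss of Fra-1 bears on these genes. None of the 10 was called (0 of 10, against 0.013% of all features, 3 of 23104), 9 differences were negative, and the median was −0.71, against 0.03 over all features. An unadjusted p under 0.05 was reached by 4 members, Lrrn4, Bnc1, Wt1 and Upk1b, against 8.95% of all features. The 6 members whose groups did not overlap were all lower in Fra-1 knockout cells, where 18.5% of all features were lower without overlap.

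Lrrn4 averaged −2.55 ± 0.55 in Fra-1 knockout cells and −0.45 ± 0.54 in Fra-1 controls (SD, n = 2 each), a log2 difference of −2.10 ± 0.46 (SE; 95% confidence interval −3.21 to −0.98; limma adjusted p = 0.311). Bnc1 averaged −3.86 ± 0.62 in knockout cells and −1.84 ± 0.49 in controls, a log2 difference of −2.02 ± 0.43 (SE; interval −3.07 to −0.97; limma adjusted p = 0.305). Wt1 averaged 1.71 ± 0.53 in knockout cells and 2.98 ± 0.41 in controls, a log2 difference of −1.27 ± 0.32 (SE; interval −2.05 to −0.50; limma adjusted p = 0.356). These 3 values correspond to levels 4.27, 4.06 and 2.42 times lower in Fra-1 knockout cells, and each unadjusted interval lay below 0. Upk1b had a log2 difference of −1.20 ± 0.37 (SE; limma adjusted p = 0.440). For the remaining members the unadjusted 95% interval included 0: Gpm6a had a log2 difference of −0.85, Krt18 and Krt8 of −0.57 each, Krt19 of −0.29, Msln of −0.12 and Upk3b of 0.27, the one positive value. The keratins therefore stood closer to 0 than Lrrn4 and Bnc1, but the differences between members were not tested.

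The arrays were spread over 2 slides, with Fra-1 knockout 1 sharing the first with the 2 Fra-1 controls and Fra-1 knockout 2 on the second. With slide as a term the median of the 10 members was −0.44, with Lrrn4 at −1.72 (limma adjusted p = 0.325), Bnc1 at −1.73 (0.410) and Wt1 at −1.21 (0.499) and no member called. Within slide 1 the median was −0.55, a value with no test. Leaving out single arrays gave a negative median each time: −1.11 when Fra-1 knockout 1 was dropped, −0.55 for Fra-1 knockout 2, −1.05 for Fra-1 control 1 and −0.44 for Fra-1 control 2.

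The same question for Fra-2 gave 0 of 10 members called, as of all features (0%, 0 of 23111). The smallest adjusted p of a member was 0.726, and none had an unadjusted p under 0.05, which 8.86% of all features had. Differences were positive for 9 members with a median of 0.34, against −0.03 over all features. These counts and the median include Bnc1, Lrrn4 and Upk3b, which were below background in both groups and carry no fold; the 5 members well above background on all 8 arrays had a median of 0.32. Upk1b was below background in Fra-2 controls and above it on only 1 of 2 knockout arrays, so no fold is given (limma adjusted p = 0.726). Krt18 had a log2 difference of 0.48 ± 0.35 (SE; 95% interval −0.38 to 1.35). Wt1 stood at 0.09, Msln at 0.25, Krt19 at 0.32, Krt8 at 0.36 and Gpm6a at 0.46. The groups did not overlap for 4 members higher in Fra-2 knockout cells (14.9% of all features) and for 1 lower (20.4%). Of these, Bnc1 among the higher and Upk3b, the one lower, had no level above background in either group. Krt18, also among the higher, was separated by a narrow margin, with −0.888 on Fra-2 knockout 2 and −0.903 on Fra-2 control 2.

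The positive median depended on Fra-2 knockout 1, the array with the fewest spots above background, on which 7 of the 10 members had the highest value of their line. Without it the median was 0.06, and it was 0.55 without Fra-2 knockout 2. With slide as a term it was 0.34, and it was 0.48 within slide 1, which holds Fra-2 knockout 1, and 0.02 within slide 2. When values below that array's detection level of −3.80 were set to it on every array, the median was 0.04.

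**Figure D2:**
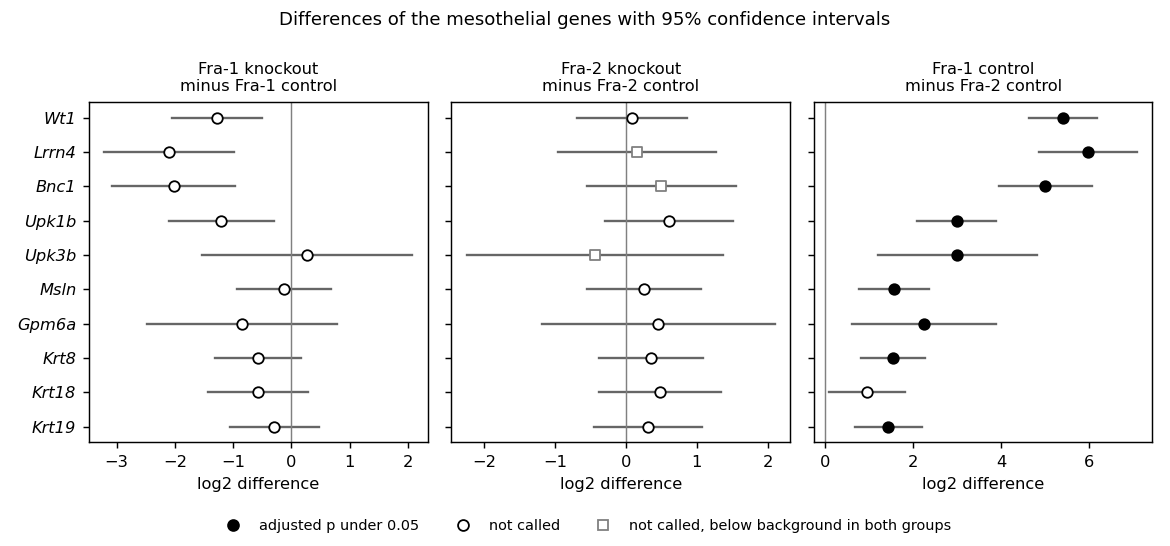
Log2 difference (points) with its 95% confidence interval (lines) for each mesothelial gene in 3 comparisons; filled points have a limma adjusted p under 0.05 over all features, and squares are below background in both groups. No point is filled for either knockout, and 9 of 10 are filled for Fra-1 control minus Fra-2 control; the horizontal scales differ between panels.

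Whether the genes responded differently to the loss of the 2 factors was tested as the Fra-1 effect minus the Fra-2 effect. Again 0 of 10 members were called (against 0.00433% of all features), with a median of −1.18 and 9 negative values, against a median of 0.06 over all features. An unadjusted p under 0.05 was reached by Bnc1, Lrrn4, Upk1b and Wt1, against 9.68% of all features. Of these only Wt1 was measured above background in all 4 groups, with −1.36 ± 0.45 (SE; limma adjusted p = 0.431). For Bnc1 and Lrrn4 both Fra-2 groups were below background, and for Upk1b the Fra-2 controls, so the sizes of their fitted differences are not given. Over the 5 members well above background on all 8 arrays the median was −0.92. Upk1b, Bnc1 and Krt18 were lower without overlap in Fra-1 knockout cells and higher without overlap in Fra-2 knockout cells, a pattern of 2.90% of all features. The Fra-2 side of that pattern lies below background for Bnc1, and for Upk1b in the controls and on Fra-2 knockout 1. For Krt18 both margins were narrow beside the members' median replicate SD of 0.42. Its nearest values were −0.320 (Fra-1 knockout 1) and −0.311 (Fra-1 control 1). In the other line they were −0.888 (Fra-2 knockout 2) and −0.903 (Fra-2 control 2). With slide as a term the median was −0.88, and it ranged from −1.51 to −0.79 when single arrays were left out.

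Between the lines the members differed far more. In Fra-1 controls 9 of 10 members were called higher than in Fra-2 controls and none was called lower, where 17.6% of all features were called higher and 36.2% were called in either direction. The median log2 difference of the members was 2.61, against −0.05 over all features. All 10 were higher without overlap, as were 33.5% of all features, and for 8 members, all but Krt18 and Gpm6a, all 4 arrays of the Fra-1 line lay above all 4 of the Fra-2 line. Of the 10 members, 5 (Bnc1, Lrrn4, Upk1b, Upk3b and Gpm6a) passed the filter on dim probes only through the Fra-1 line, which favours a difference. Among the other 5, which were well above background on all 8 arrays, 4 were called higher, where 17.1% of such features were.

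Lrrn4 averaged −0.45 ± 0.54 in Fra-1 controls and −6.43 ± 0.41 in Fra-2 controls (SD, n = 2 each), where it was below background, and was at least 20.7-fold higher (limma adjusted p = 4.72e-04). A bound of this kind sets the brighter group's mean against the higher of the dim probe's own signal and the lowest signal well above background on each array. Bnc1 averaged −1.84 ± 0.49 in Fra-1 controls and −6.84 ± 0.04 in Fra-2 controls and was at least 7.92-fold higher (limma adjusted p = 6.68e-04). Upk1b was at least 7.09-fold higher (limma adjusted p = 0.00212) and Upk3b at least 5.74-fold higher (0.0239). Wt1, measured on all arrays, averaged 2.98 ± 0.41 in Fra-1 controls and −2.43 ± 0.03 in Fra-2 controls, a 42.5-fold difference and a log2 difference of 5.41 ± 0.32 (SE; limma adjusted p = 2.42e-04).

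The other members differed less. Gpm6a had a log2 difference of 2.24 (limma adjusted p = 0.0449), Msln of 1.56 (0.0141), Krt8 of 1.54 (0.0107) and Krt19 of 1.44 (0.0159). Krt18, at 0.96 ± 0.35 (SE, limma adjusted p = 0.0820), was the one not called. The filter on dim probes was not redone in the fits that left out 1 array. Lrrn4, Bnc1 and Upk1b had passed it only through the Fra-1 line, so calls that they kept in those fits are no separate support. The calls for Wt1, Lrrn4, Bnc1 and Upk1b were kept in each of the 8 fits that left out 1 array. Without Fra-1 control 2 only those 4 remained, since Msln, Upk3b, Krt8, Krt19 and Gpm6a lost the call, and without Fra-2 control 1 Msln, Upk3b, Krt8 and Krt19 lost it. Gpm6a kept its call in 1 of the 8 fits, the one without Fra-2 control 1, and lost it in 5 of 12 other alternatives, among them slide as a term (limma adjusted p = 0.0861). Both control groups were on slide 1 except Fra-2 control 2, and with slide as a term the median was 2.26 with 8 members called, while within slide 1 it was 2.28.

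The knockout arrays allowed the lines to be compared on different mice, in a comparison added after the data had been seen. Its groups differ in the deleted gene and in the Cre driver as well as in line and elicitation, so it does not repeat the comparison of controls. In Fra-1 knockout cells 6 of 10 members were called higher than in Fra-2 knockout cells, where 21.9% of all features were called higher and 41.1% in either direction. Of these 6, Upk1b, Upk3b, Lrrn4 and Bnc1 had passed the filter on dim probes only through the Fra-1 line, and of the 5 members well above background on all arrays 2 were called. The median of all 10 was 1.19. Wt1 had a log2 difference of 4.05 ± 0.32 (SE; limma adjusted p = 4.72e-04), Upk1b of 1.18 (0.0448) and Msln of 1.19 (0.0316), while Upk3b was at least 4.72-fold, Lrrn4 at least 3.30-fold and Bnc1 at least 1.33-fold higher. Krt18 stood at −0.10 (limma adjusted p = 0.848), with Krt8 at 0.62, Krt19 at 0.83 and Gpm6a at 0.93 not called either. Within slides the median was 1.55 (slide 1) and 0.97 (slide 2).

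To describe how the members varied among arrays apart from the difference between lines, each level was set against the mean of its gene over the 4 arrays of its line. The members' mean deviation was −0.20 and −0.67 on Fra-1 knockout 1 and 2, against 0.16 and 0.71 on Fra-1 control 1 and 2. It was 0.33 and −0.06 on Fra-2 knockout 1 and 2, against −0.02 and −0.26 on Fra-2 control 1 and 2. Fra-1 control 2 held the highest value of the 8 arrays for 8 members; the exceptions were Msln, highest on Fra-1 knockout 1, and Upk3b, highest on Fra-1 knockout 2. Fra-1 knockout 2 held the lowest value of the Fra-1 line for 9 members, all but Upk3b.

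**Figure D3:**
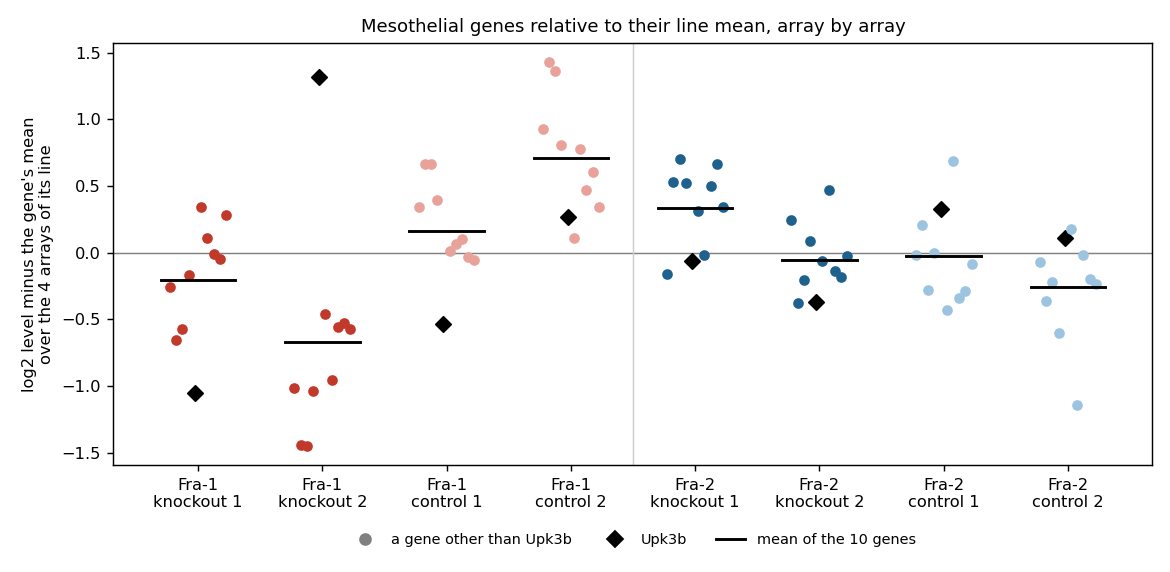
Level of each mesothelial gene minus its mean over the 4 arrays of its line (log2, vertical axis) on each array, with the mean of the 10 genes as a bar and Upk3b as a diamond. The bars run from −0.67 on Fra-1 knockout 2 to 0.71 on Fra-1 control 2, and Upk3b lies opposite to the other genes on Fra-1 knockout 2.

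Over the 8 arrays, which the members share together with their signal scale, the 45 pairs of members had a median correlation of 0.66 (Pearson's r of line-centred levels, a description with no test). Lrrn4 and Bnc1, whose promoters are shown above, had r = 0.97, and Krt8 and Krt18 r = 0.96. Lrrn4 and Bnc1 were below background on the 4 Fra-2 line arrays, so those points carry no measured level, whereas both keratins were above it on all 8. Krt8 and Krt18 lie on chromosome 15 with 2 annotated genes between them. Against the mean of all members, r was highest for Bnc1, Lrrn4 and Upk1b (0.97, 0.97 and 0.96). Among those with a positive value it was lowest for Msln (0.44). That mean includes the gene compared with it, which favours a high r for genes that vary most among arrays. The order of the members by this r is therefore no separate result. All 9 negative pairs involved Upk3b, with r = −0.70 against Msln as the lowest, and without Upk3b the 36 remaining pairs had a median of 0.76.

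Among 1920 other named genes whose line-centred SD was at least 0.5, the 8 most like the members' mean deviation were Igfbp3, Pitx1, Adamts2, Sox9, Daam2, Hoxc9, Efna5 and Nid1 (r = 0.97 to 0.98 over the 8 arrays). Adamts2, a protease that trims procollagen, was at −0.16 and −0.76 in Fra-1 knockout cells against 0.53 and 1.11 in Fra-1 controls, and at −1.13 and −1.42 in Fra-2 knockout cells against −1.72 and −1.79 in Fra-2 controls. Nid1, a basement membrane protein, was at −0.40 and −0.80 in Fra-1 knockout cells against 0.41 and 1.36 in Fra-1 controls. Both had Fra-1 knockout arrays below both controls. The members' mean deviation has that order too, so the choice by correlation favoured it and it is no separate result. Neither difference was called (Adamts2 −1.28, limma adjusted p = 0.305, and Nid1 −1.48, limma adjusted p = 0.330). Of the 8, 3 (Adamts2, Efna5 and Nid1) were well above background on all arrays. The transcription factors Sox9, Pitx1 and Hoxc9 were so on 4, 3 and 3 arrays, and Igfbp3 and Daam2 on 2 each. Arrays on which a gene was below background carry no measured level of it.

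Further genes known from mesothelium did not go one way between the lines. Of 22 in the list 19 were tested, and 0 were called for Fra-1 knockout against control (15 negative, median −0.40), with Cdh2, the adhesion protein N-cadherin, at −1.70 (limma adjusted p = 0.290) and Rspo1, a secreted Wnt enhancer, at −1.60 (0.322). For Fra-2 knockout against control 0 were called (median 0.17). In Fra-1 against Fra-2 controls 8 were called higher and 4 called lower. For this and every further list, the genes counted as higher or lower in that comparison are those called. Of all features, 17.6% were called higher and 18.6% lower. The higher ones included the surface glycoprotein podoplanin (Pdpn, log2 difference 4.86, limma adjusted p = 4.00e-04), Cdh2 (4.27), Nkain4 (3.39) and Rspo1 (3.31). Pdpn was at 6.43 and 6.36 in Fra-1 knockout cells against 6.75 and 6.25 in Fra-1 controls, with overlap. Which cells the signals of this list came from was not tested. The lower ones were Prg4 (−6.71), a lubricating glycoprotein that resident peritoneal macrophages of mice also express, the protease inhibitor Slpi (−3.81), complement C3 (−2.56) and the laminin receptor Bcam (−1.85). The summed signal of this list, in units of the 75th percentile signal of each array, was 197 to 228 in Fra-1 knockout cells and 221 to 226 in Fra-1 controls. It was 1164 to 1219 in Fra-2 knockout cells and 893 to 994 in Fra-2 controls. The lines thus stood in the opposite order to the sums of the 10 members, but a sum follows its brightest genes. On Fra-2 control 1, Slpi was at 9.25, C3 at 7.73 and Prg4 at 6.63, all 3 lower in Fra-1 controls. By gene, 12 of the 19 differences between controls were positive and 7 negative, with a median of 1.17. Calb2, which encodes the mesothelial marker calretinin, was not well above background on any array.

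Genes of retinoid handling, which mesothelium shares with other tissues, were all tested. None of the 10 was called for Fra-1 knockout against control, with 8 negative, 7 at an unadjusted p under 0.05 and a median of −0.98. Aldh1a3, a retinaldehyde dehydrogenase, was below background on both Fra-1 knockout arrays (−6.37 and −7.06) and barely above it in Fra-1 controls (−4.88 and −4.85; limma adjusted p = 0.199), which allows no fold. Crabp2, a retinoic acid binding protein, had a log2 difference of −1.38 (limma adjusted p = 0.290). Against Fra-2 controls 6 were higher in Fra-1 controls and none lower, among them the retinaldehyde dehydrogenase Aldh1a1 (log2 difference 3.77), Dhrs3 (3.35, with Fra-1 control 2 dropped as a marked outlier) and the membrane transporter of vitamin A Stra6 (at least 7.27-fold). The summed signal of the 9 genes with a value on every array was 11.1 to 15.6 in Fra-1 knockout cells and 24.9 to 32.5 in Fra-1 controls. Dhrs3, left out of this sum, was the far brighter gene, at log2 levels of 8.26 and 8.32 in Fra-1 knockout cells and 8.59 on Fra-1 control 1. The sum therefore does not describe the whole list.

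Markers of fibroblasts, the collagen-producing cells of connective tissue, had an order across arrays similar to that of the members, but not the closest. The mean line-centred level of the fibroblast list had r = 0.83 with that of the members over the 8 arrays. The further mesothelial genes had r = 0.94, the retinoid genes with a value on every array 0.95 and the mesenchymal transition genes 0.80. Of 13 tested, 12 were negative for Fra-1 knockout against control with a median of −1.28 and 0 called, and the 10 higher and 2 lower in Fra-1 than in Fra-2 controls included Pdgfra (at least 102-fold), Col1a2 (log2 difference 6.27) and Col1a1 (6.25) among the higher and Pi16 (−3.25) among the lower. Their summed signal was 87.2 to 132 in Fra-1 knockout cells and 225 to 314 in Fra-1 controls, and 10.9 to 11.0 in Fra-2 knockout cells and 7.86 to 11.0 in Fra-2 controls, with Dpt alone below background on all arrays. The summed signal of the 10 mesothelial genes was 4.94 to 7.39 in Fra-1 knockout cells and 9.96 to 14.7 in Fra-1 controls, and 1.46 to 2.05 in Fra-2 knockout cells and 1.32 to 1.40 in Fra-2 controls. The part of fibroblasts in the members' values was not tested. Genes of the mesenchymal transition had a median of −0.42 for Fra-1 knockout against control with 0 of 13 called, and 6 of 12 were higher in Fra-1 than in Fra-2 controls, including smooth muscle actin (Acta2, log2 difference 4.10) and Snai1 (at least 8.56-fold), a repressor of epithelial genes.

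Markers of other epithelia did not follow that order. Of 15 epithelial markers 6, including the bladder uroplakins Upk2 and Upk3a, the gut and bladder keratin Krt20 and the intestinal Vil1, were not well above background on any array, and the list summed to 1.12 to 1.25 in Fra-1 knockout cells, 0.92 to 1.21 in Fra-1 controls, 1.62 to 2.33 in Fra-2 knockout cells and 1.42 to 1.90 in Fra-2 controls. Of 7 tested, 1 was higher in Fra-1 than in Fra-2 controls (Cdh1, at least 3.37-fold) and 1 lower (Upk1a, log2 difference −1.60). Of 10 tested keratin and desmosome genes other than the members, 2 were higher (Dsg2, at least 1.75-fold, and Pkp3, log2 difference 0.52) and 1 lower (Krt80, −1.29), with a median of 0.09, and 0 were called for either knockout. Desmoplakin (Dsp) and Dsc2 of this list were below background on all arrays.

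Blood cell markers stood in other orders between the lines. The 7 macrophage markers with a value on every array summed to 750 to 816 in Fra-1 knockout cells and 779 to 977 in Fra-1 controls. Their sums were 916 to 985 in Fra-2 knockout cells and 1001 to 1130 in Fra-2 controls. In Fra-1 against Fra-2 controls 1 of 8 macrophage markers was higher (Cd68, log2 difference 1.91) and 4 were lower (Cd14 at −3.96 the most). In the same comparison all 6 mast cell genes (Mcpt4, −7.03) and all 4 tested B cell genes (Ms4a1, −4.94) were lower, as were 1 of 4 neutrophil genes (Camp, −4.01) and the one tested adipocyte gene (Retn, −2.78), while 4 of 6 adipocyte genes, Adipoq, Plin1, Lep and Cidec, were below background on all arrays. Endothelial markers were split, with 1 higher (Vwf, log2 difference 5.47) and 2 lower (Pecam1, −0.80, and Plvap, −0.66) of 4 tested. None of these lists had a member called for either knockout. Within the Fra-1 line, however, the 6 mast cell genes all had negative differences for knockout against control (median −0.80), with sums of 1.08 to 1.27 in Fra-1 knockout cells and 1.83 to 2.21 in Fra-1 controls without overlap, and their part in the members' values was not tested. In Fra-2 knockout cells neutrophil markers summed to 27.6 to 41.1, against 12.3 to 17.4 in Fra-2 controls, and their part in the members' values was not tested.

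**Figure D4:**
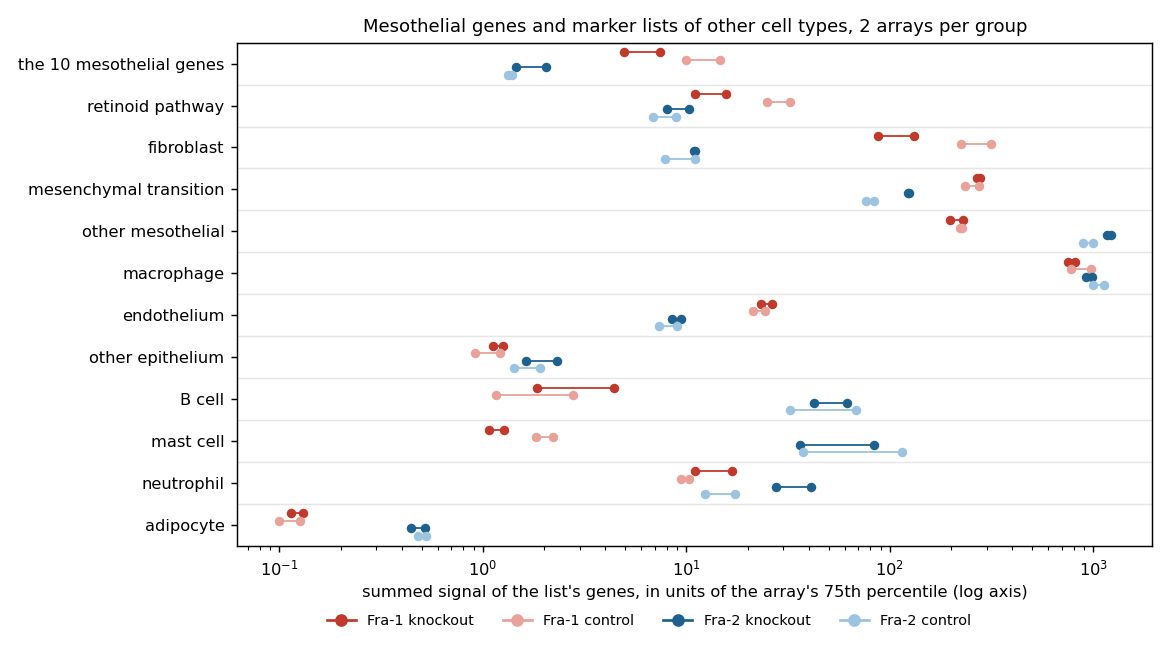
Summed signal of the mesothelial genes and of marker lists (log axis, in units of each array's 75th percentile signal), with both arrays of each group joined by a line. In the fibroblast list and the retinoid list without Dhrs3, as for the mesothelial genes, Fra-1 controls are highest and Fra-1 knockout cells next. The Fra-2 groups overlap in both lists but not for the mesothelial genes. Mast cell and B cell lists are higher in the Fra-2 line, and macrophage markers stay within 750 to 1130. Genes without a value on every array are left out of the sums. The sums thus cover 9 of 10 retinoid, 7 of 8 macrophage and 12 of 13 mesenchymal transition genes.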

How the data were processed

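Single-colour Agilent arrays were hybridised with Cy3-labelled cRNA made from 50 ng of total RNA, per the labels. The authors deposited scanner output of Feature Extraction 11.5.1.1, per the file headers, whose processed signal is a background-corrected intensity. They also deposited a matrix of log2 values, which matched the scanner values scaled to the 75th percentile and centred per probe on the median of the 8 arrays (r from 0.9989 to 0.9994 per array; median of each column −0.15 to 0.25).

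Here log2 intensities were set relative to the 75th percentile of each array. Control spots and spots marked as outliers (191 to 317 per array) were left out, and replicate spots were averaged on the log2 scale. Probes had to be well above background on both arrays of at least 1 group to be tested, and the brightest one stood for its gene. Probes were named by accession through RefSeq (GRCm38.p6; 28020 of 55681 probes). Group means were fitted over all 8 arrays with limma 3.58.1 in R 4.3.3, with Benjamini-Hochberg adjustment over all features tested, and the fit was tested on simulated data. The labels count separate mice per genotype, so replicates were taken as mice, and 2 arrays per group limit the precision. Replicate numbers follow deposition order and pair nothing. Members and marker lists were chosen with earlier results of these data known. All 10 members are named. From each other list up to 4 called genes per direction, or else 2 with the smallest p, could be named, and the 8 genes most like the members by correlation. Alternatives covered normalization, background correction, filter, slide, probe choice, the prior, the floor, the samples fitted and single arrays left out. The files used here hold no spot means, so background correction by normexp (offset 50) used spot medians.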

Additional observations from a re-analysis of the deposited data

How the results depend on the processing

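Pooling both control groups put the line difference into each knockout comparison: the Fra-1 median became 0.46 with 1 member called (Wt1), and the Fra-2 median −0.77 with 3 called. Apart from this, 0 members were called for either knockout or for the difference of effects under any alternative run. The Fra-1 median stayed negative (−0.71 to −0.44 under the other alternatives, −1.11 to −0.44 with single arrays left out), and so did that of the difference of effects (−1.51 to −0.79 with single arrays left out; −0.68 with normexp). The Fra-2 median, 0.34 as reported, was 0.06 to 0.55 with single arrays left out, 0.04 with a common floor, 0.12 with normexp and 0.02 within slide 2. For Fra-1 against Fra-2 controls, 4 to 9 members were called with single arrays left out (median 2.24 to 3.13) and 4 of the 5 members above background on all 8 arrays (median 1.54). The median was 1.16 with normexp (9 called), 1.55 with a common floor (7), 1.84 for the mean of both genotypes (9) and 1.19 for the knockouts (6). Lrrn4 in that comparison was at 2.59 with normexp. Over all features, 3 were called for Fra-1 knockout (0 to 22 under the alternatives other than pooled controls, 3561 with pooled controls), 0 for Fra-2 knockout (0 to 51; 4071 with pooled controls), and 1 for the difference of effects (0 to 29). The cause of these changes was not tested. The median pooled SD of a member between replicate arrays was 0.42. Signals near background limit Bnc1, Lrrn4, Upk3b, Upk1b and Gpm6a in the Fra-2 line. No paired analysis was possible because the labels give no replicate numbers shared between groups.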
